A study of Homo sapiens with 6 samples.

Results

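Aminoacyl-tRNA synthetases, the enzymes that load each amino acid onto its transfer RNA, were followed in HN12, a line of human cells from a squamous carcinoma of the head and neck. The set held 35 of the 16330 genes in the deposited count table, 19 of them cytosolic and 16 mitochondrial. Membership followed the gene symbol, and symbols ending in 2 were taken as mitochondrial. The rule uses no measured value, although the set was proposed with earlier results of these data known. Cells were exposed for 24 h to CPI-613 (3 libraries) or to the solvent DMSO (Control, 3 libraries), and messenger RNA abundance was read by RNA sequencing. CPI-613, also called devimistat, is an analogue of lipoate, the cofactor of the pyruvate and 2-oxoglutarate dehydrogenase complexes in mitochondria. The sources used here do not give its dose. All libraries came from a single cell line, and no label says whether replicates were grown as separate cultures. The p-values therefore weigh the difference against a spread between libraries that may be technical only.

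Each cytosolic synthetase charges the transfer RNAs used by ribosomes in the cytosol, and a separate nuclear gene usually encodes the enzyme that does so inside mitochondria. GARS1 and KARS1 are exceptions, since each makes the glycyl or lysyl enzyme for both compartments. EPRS1 joins the glutamyl and prolyl enzymes in a single protein, and FARSA and FARSB are the subunits of the cytosolic phenylalanyl enzyme. Several cytosolic synthetases sit together in the multisynthetase complex. Many genes of cytosolic synthetases are known targets of ATF4, a transcription factor whose synthesis rises when amino acids are short or proteins misfold, whereas WARS1 is also a well known target of interferon-gamma.

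The libraries held 11531942 to 15486513 counts, and 12279 to 12691 genes had at least 10 counts in a library. All 35 synthetases were in the table, and all passed the filter on low counts. Of the squamous epithelial markers 8 of 8 were detected and tested, among them KRT17, an epithelial keratin, at a mean of 2555 CPM with CPI-613 and 2388 CPM in Control, where CPM are counts scaled to a common library size. Of these 8 markers 5 had estimates below 0, and the median estimate was -0.27 on the log2 scale. By counts 0 of 8 were called by edgeR, DESeq2 or limma-voom. An unadjusted p under 0.05 was found for 1, beside 1823 of all 12655 genes by edgeR. KRT5, a keratin of basal cells, averaged 962 CPM with CPI-613 and 2232 CPM in Control and was called lower after adjustment for GC content and length (log2 fold change -1.45, edgeR adjusted p = 0.0139). Of 11 markers of leukocytes, fibroblasts and endothelium, 4 passed the filter, CD14, CD68, COL1A1 and PDGFRB. The leukocyte marker CD68 averaged 55.1 CPM with CPI-613 and 50.3 CPM in Control. Of the fibroblast markers, COL1A1 averaged 33.97 CPM with CPI-613 and 36.35 CPM in Control, and PDGFRB 1.93 and 2.82 CPM. PTPRC, the pan-leukocyte marker, did not pass, with 1, 0 and 0 counts with CPI-613 and 1, 2 and 1 counts in Control. CD14, a monocyte marker, was called lower, with 1.498, 1.31 and 4.49 CPM with CPI-613, against 26.1, 17.2 and 29.8 CPM in Control (edgeR adjusted p = 0.0249). CPI-613 replicate 3 stood apart from CPI-613 replicate 1 along the GC content of transcripts. The Pearson correlation of GC content with the log2 CPM difference of replicate 3 minus replicate 1 was 0.76 across 12598 genes, which are not independent. Member values are therefore given both as CPM and as GC- and length-adjusted values, from which a curve fitted to GC content and transcript length within each library was subtracted. In RNA from whole cultures, a change in RNA per cell and a change in the number of cells that carry it cannot be told apart.

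CPI-613 was followed by higher transcript levels of 5 cytosolic synthetases, WARS1, AARS1, GARS1, SARS1 and CARS1, with estimates of 2.24-fold to 3.52-fold. No mitochondrial synthetase was called in either direction. Calls came from edgeR's quasi-likelihood test of CPI-613 against Control, with Benjamini-Hochberg adjustment over all 12655 genes tested and a threshold of 0.05. Thus 5 of 19 cytosolic genes were called higher, against 1.94% of all genes tested, and 14 of 19 were not called. For 0 of 16 mitochondrial genes was a call made, against 3.17% of all genes in either direction. None of the 16 reached an unadjusted p under 0.05 by edgeR, DESeq2 or limma-voom. Of all 12655 genes 1823, 1866 and 1815 did so by these tools.

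WARS1, the tryptophanyl-tRNA synthetase, showed the largest estimate among the members. It had 514, 644 and 726 CPM in CPI-613 replicates 1 to 3, against 159, 200.1 and 177 CPM in Control replicates 1 to 3. Every CPI-613 library was above every Control library, by a log2 fold change of 1.81 ± 0.21 (SE, n = 3 each, edgeR adjusted p = 0.00857). AARS1, which charges alanine, had 557, 711 and 842 CPM with CPI-613, against 246, 322 and 251 CPM in Control. The groups of AARS1 were separate, and its log2 fold change was 1.37 ± 0.22 (SE, n = 3 each, edgeR adjusted p = 0.0255).

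GARS1, the glycyl-tRNA synthetase of both compartments, had 431, 438 and 369.8 CPM with CPI-613, against 149, 181 and 159 CPM in Control. Its CPI-613 libraries lay close together and all above Control, and its log2 fold change was 1.34 ± 0.17 (SE, n = 3 each, edgeR adjusted p = 0.0120). SARS1 charges serine and, through the same transfer RNA, starts the route to selenocysteine. It had 196, 279 and 357 CPM with CPI-613, against 102, 124 and 105 CPM in Control, a log2 fold change of 1.33 ± 0.25 (SE, n = 3 each, edgeR adjusted p = 0.0394). The lowest CPI-613 library of SARS1, replicate 1, still exceeded the highest Control library. CARS1, which charges cysteine, had 261, 316 and 363 CPM with CPI-613, against 133, 156 and 131 CPM in Control. Its groups did not overlap either, and its log2 fold change was 1.16 ± 0.19 (SE, n = 3 each, edgeR adjusted p = 0.0260).

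**Figure D1:**
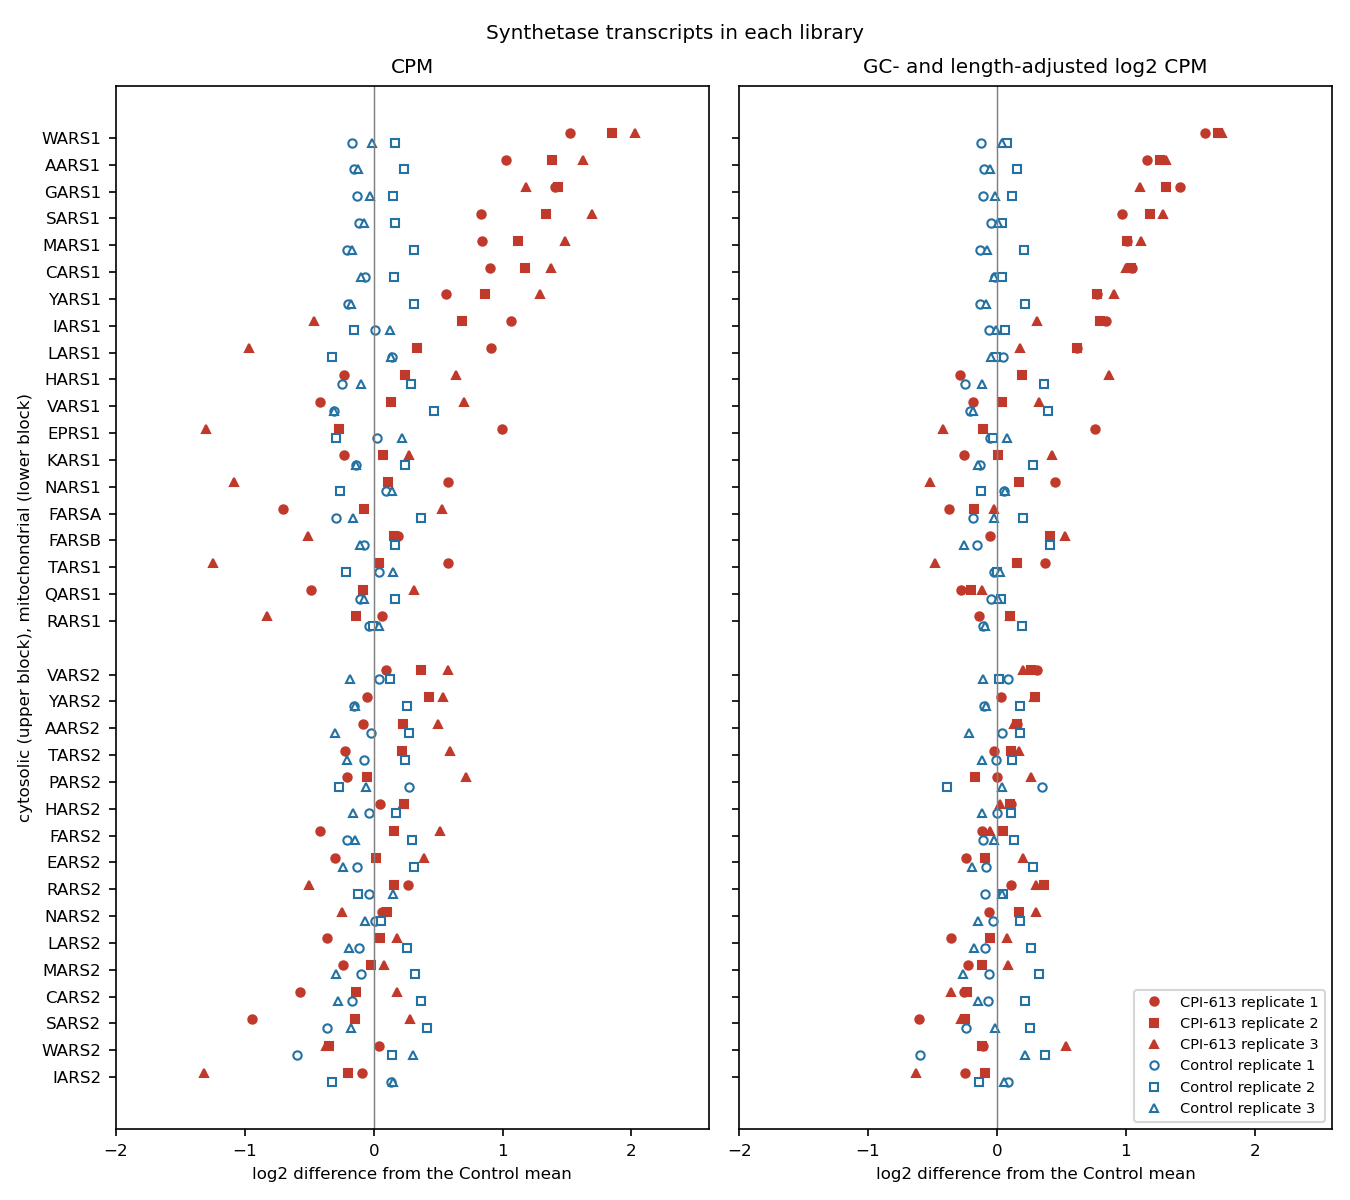
Level of each synthetase in each library as a log2 difference from the mean of the Control libraries, from CPM on the left and after GC and length adjustment on the right. Red filled symbols are CPI-613 replicates 1 to 3 and blue open symbols Control replicates 1 to 3. All CPI-613 libraries lie right of all Control libraries for 7 cytosolic genes in CPM and for 9 after adjustment.

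MARS1, the methionyl enzyme, and YARS1, the tyrosyl enzyme, were also above Control in every CPI-613 library. MARS1 had 495, 603 and 775 CPM with CPI-613, against 240.3, 344 and 247 CPM in Control, an estimate of 1.17 ± 0.24 on the log2 scale (SE, n = 3 each) that missed the threshold (edgeR adjusted p = 0.0557). YARS1 had 352, 436 and 584 CPM with CPI-613, against 208, 298 and 211 CPM in Control, an estimate of 0.93 ± 0.26 (SE, edgeR adjusted p = 0.122). DESeq2 called both, against 3.89% of all genes called higher by it, with adjusted p of 0.00128 for MARS1 and 0.030 for YARS1. With these, 7 of 19 cytosolic genes and 0 of 16 mitochondrial genes had CPI-613 libraries all above Control, against 11.8% of all genes tested, and 0 of 35 had them all below, against 9.18%. Those 7 were higher at an unadjusted p under 0.05, and they were the only cytosolic members past that mark in the edgeR test. In either direction 1823 of all 12655 genes passed it.

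After the trends on GC content and length were removed, edgeR called 8 cytosolic genes higher, against 6.57% of all genes. The 8 were WARS1, AARS1, GARS1, SARS1 and CARS1 together with MARS1, YARS1 and IARS1. The adjusted log2 fold change of MARS1 was 1.04 ± 0.13 (SE, n = 3 each, edgeR adjusted p = 0.00271), and that of YARS1 was 0.82 ± 0.13 (SE, edgeR adjusted p = 0.00708). No mitochondrial gene was called on this scale, where 11.6% of all genes were called, 6.57% higher and 5% lower. The 5 calls rest on few libraries. Without CPI-613 replicate 2, Control replicate 1 or Control replicate 3 the edgeR test on CPM called 0 members, while the same 7 members kept an unadjusted p under 0.05 (WARS1, AARS1, GARS1, SARS1, CARS1, MARS1 and YARS1). Those fits called 7, 0 and 0 genes of the whole table, so this loss was not particular to the members. An unadjusted p under 0.05 was found in them for 1163, 1064 and 1117 genes. After GC and length adjustment 6 to 9 cytosolic members were called whichever library was left out.

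**Figure D2:**
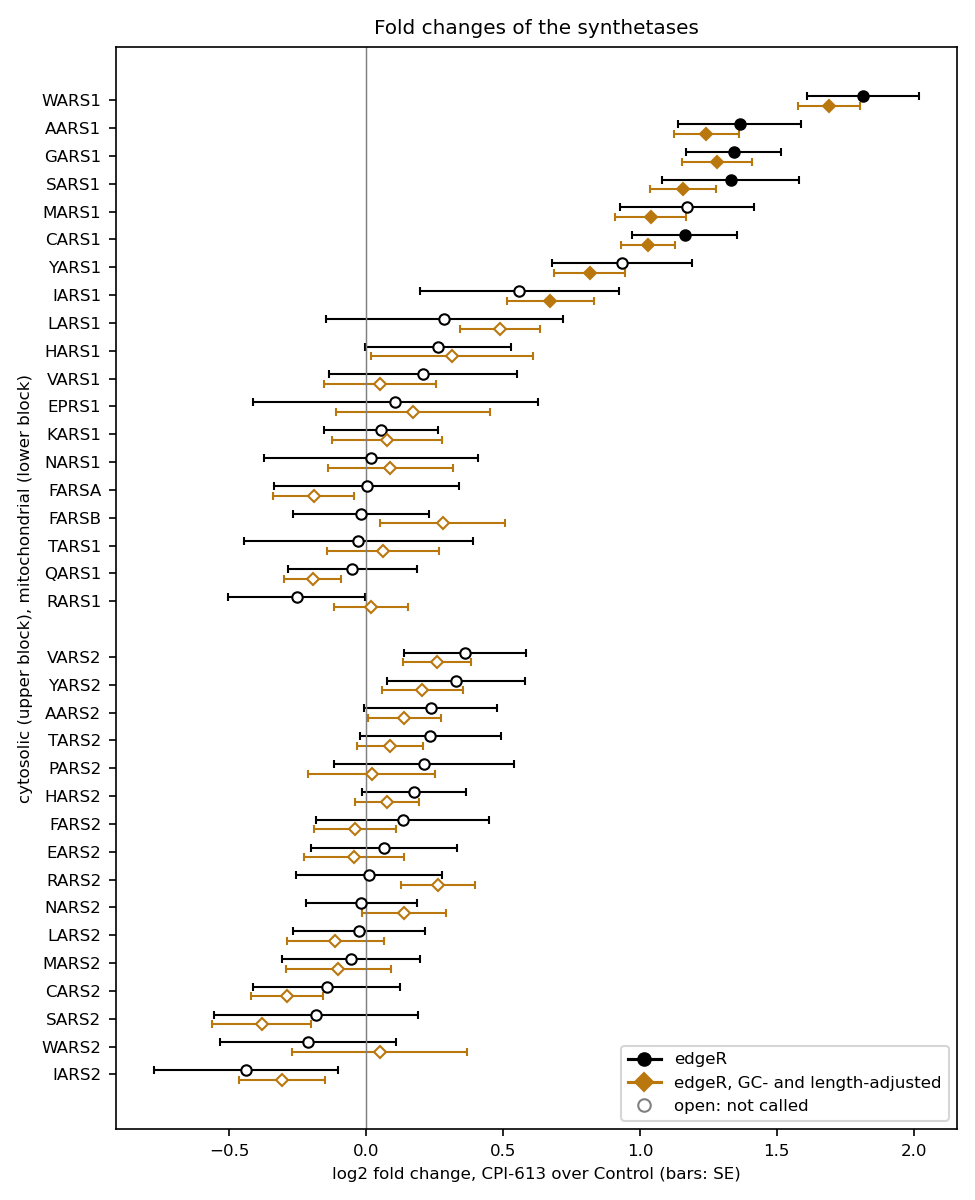
Log2 fold change of CPI-613 over Control for each synthetase, with bars of 1 SE from edgeR (n = 3 libraries per group). Circles are from counts and diamonds from the GC- and length-adjusted fit, and filled symbols passed an adjusted p of 0.05, which 5 cytosolic genes did by counts and 8 after adjustment.

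IARS1, the isoleucyl enzyme, was called after that adjustment although its groups overlapped in CPM. Its CPM were 489, 375 and 169.5 with CPI-613, against 236, 209.9 and 256 in Control. CPI-613 replicates 1 and 2 lay above every Control library and replicate 3 below them, so the groups overlapped, with a log2 fold change of 0.56 (edgeR adjusted p = 0.604). GC- and length-adjusted log2 CPM were 8.60, 8.55 and 8.07 with CPI-613, against 7.69, 7.82 and 7.75 in Control. On that scale every CPI-613 library was above Control, by 0.67 ± 0.16 (SE, n = 3 each, edgeR adjusted p = 0.0332).

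LARS1, the leucyl enzyme that also serves as a leucine sensor for mTORC1, had a similar order of libraries. It had 252, 169 and 68.3 CPM with CPI-613, against 148, 107 and 146 CPM in Control, so the groups overlapped. Its adjusted log2 CPM were 7.49, 7.49 and 7.04 with CPI-613, against 6.92, 6.86 and 6.82 in Control, which did not overlap but did not pass the test (edgeR adjusted p = 0.0725). On the log2 scale EPRS1 differed most between CPI-613 replicates 1 and 3 among the 35 members, with 298, 124 and 61.0 CPM in CPI-613 replicates 1 to 3, against 152, 123 and 174 CPM in Control. Neither TARS1, the threonyl enzyme, nor NARS1, the asparaginyl enzyme, was called. TARS1 had 606, 417 and 171 CPM with CPI-613, against 419, 349.7 and 449.8 CPM in Control. NARS1 had 164, 119 and 51.9 CPM with CPI-613, against 117, 91.9 and 121 CPM in Control. In EPRS1, TARS1 and NARS1, CPI-613 replicate 1 was the highest library of all and replicate 3 the lowest.

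IARS1, LARS1, EPRS1, TARS1 and NARS1 all have transcripts under 45% GC. All 11 members under 45% GC were lower in CPI-613 replicate 3 than in replicate 1, and of the other 24 members 23 were higher, the exception being GARS1. Across the 35 members the correlation of GC content with that difference was 0.807 in log2 CPM and 0.231 after adjustment, as a description of 1 pair of libraries. After adjustment the difference was still -1.18 in EPRS1, -0.96 in NARS1, -0.85 in TARS1, -0.54 in IARS1 and -0.45 in LARS1. Of the other members under 45% GC, IARS2 was below 0, and FARSB, RARS1, NARS2, RARS2 and WARS2 were above 0. In HARS1 it was 0.87 in log2 CPM and 1.16 after adjustment. GC content spans 41.4% to 62.6% among the members. Of the 5 members called, GC content ran between that of GARS1 (48.6%) and that of AARS1 (53.5%). The part of RNA quality or library preparation in this spread was not tested.

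**Figure D3:**
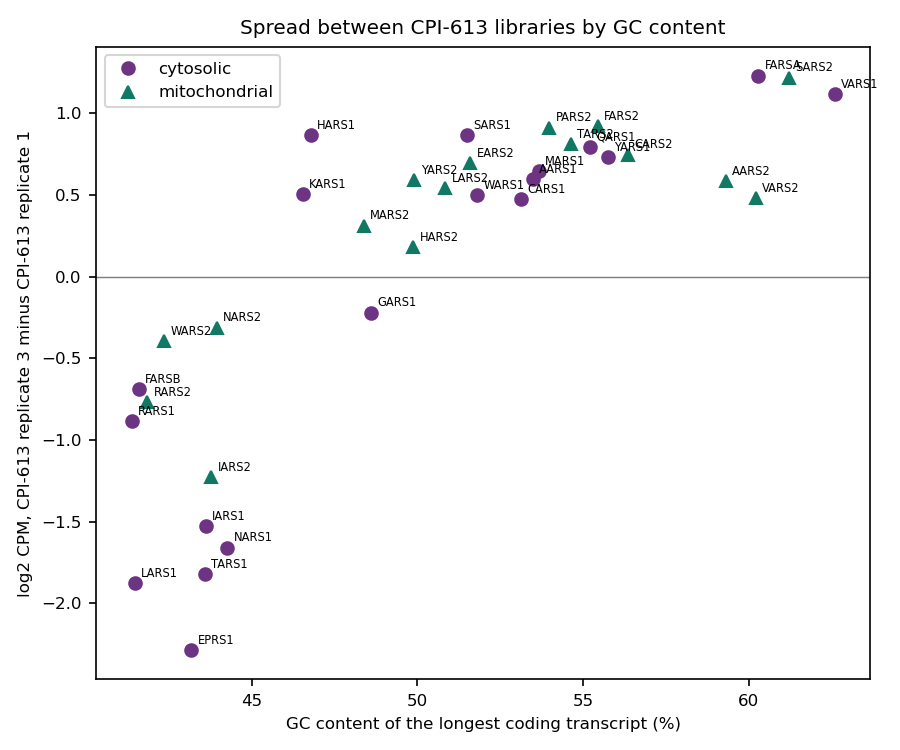
Log2 CPM of CPI-613 replicate 3 minus CPI-613 replicate 1 for each synthetase, against the GC content in percent of its longest coding transcript. Purple circles are cytosolic and green triangles mitochondrial genes. The 11 genes under 45% GC lie below 0, and 23 of the other 24 above it.

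The remaining cytosolic members gave estimates near 0. HARS1 (histidine) and VARS1 (valine) had log2 fold changes of 0.26 and 0.21, KARS1 (lysine) 0.05, FARSA and FARSB (phenylalanine) 0.00 and -0.02, QARS1 (glutamine) -0.05 and RARS1 (arginine) -0.25. None of these 7 was called by either fit, and their groups overlapped in CPM. After adjustment QARS1 was the cytosolic gene below Control in every CPI-613 library, with log2 CPM of 7.18, 7.25 and 7.34 with CPI-613, against 7.41, 7.49 and 7.46 in Control, where 13.9% of all genes lay wholly below (edgeR adjusted p = 0.287). KARS1 had 167, 206 and 237.5 CPM with CPI-613, against 178, 233 and 178 CPM in Control. Its standard error of 0.21 leaves room for a modest change in either direction.

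By position in the cell, none of the 7 members of the multisynthetase complex (EPRS1, IARS1, KARS1, LARS1, MARS1, QARS1 and RARS1) was called by counts, with MARS1 the one whose unadjusted p was under 0.05. Outside the complex 5 of 12 cytosolic genes were called, against 1.94% of all genes called higher. After adjustment the counts were 2 of 7 in the complex and 6 of 12 outside it, against 6.57% of all genes called higher. By structural class, which separates synthetases with different catalytic folds, 2 of 9 cytosolic class I genes (WARS1, CARS1) and 3 of 9 class II genes (AARS1, GARS1, SARS1) were called higher, with EPRS1 belonging to both. After adjustment 5 of 9 class I and 3 of 9 class II genes were called. These are counts only, and the difference between complex and free enzymes or between classes was not tested.

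Promoters were examined because ATF4 acts through C/EBP-ATF response elements. The letters TGATGNAA (read on both strands) were searched in windows from 250 bases before to 50 bases after the RefSeq starts of GRCh38.p14. Windows were given for 30 of the 35 members, among them 16 cytosolic and 14 mitochondrial genes. A match lay in 7 of 16 cytosolic genes (43.75%) and 1 of 14 mitochondrial genes (7.14%), YARS2. Among all 35116 windows 3.62% held a match, among 10379 genes tested 2.80%, and among 186 genes called higher 10.2%. The 60-base windows of the 5 matched genes that were called in at least 1 of the fits are shown 5′ to 3′ on the strand of the gene, with the match in capitals.
AARS1, chr16:70289660-70289719, minus strand: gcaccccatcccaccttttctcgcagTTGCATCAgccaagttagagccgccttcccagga
CARS1, chr11:3057392-3057451, minus strand: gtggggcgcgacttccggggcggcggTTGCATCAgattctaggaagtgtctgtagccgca
GARS1, chr7:30594819-30594878, plus strand: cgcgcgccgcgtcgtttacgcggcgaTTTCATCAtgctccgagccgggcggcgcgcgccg
IARS1, chr9:92293677-92293736, minus strand: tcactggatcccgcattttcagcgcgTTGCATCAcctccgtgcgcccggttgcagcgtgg
MARS1, chr12:57488038-57488097, plus strand: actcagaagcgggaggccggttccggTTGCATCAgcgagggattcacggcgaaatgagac

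In all 5 windows the capitals follow TTNCATCA, the reverse complement of TGATGNAA. The first base of the match lies at -187 in AARS1, -33 in GARS1, -13 in IARS1, -4 in MARS1 and -2 in CARS1, counted from the start of the window's transcript. NARS1 and TARS1, called neither by counts nor after adjustment, held a match as well. By the calls from counts, where MARS1 and IARS1 are uncalled, 3 of 5 called and 4 of 11 uncalled cytosolic genes with a window had one. WARS1 and SARS1 had none, which says only that these letters are absent from their windows.

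WARS1 is transcribed from more than 1 annotated start, and a window at a downstream start held letters of the interferon-stimulated response element (GAAA, 2 free bases and GAAA again, on both strands, searched after this window had been read). It is shown with the match in capitals, whose first base lies at -55.
WARS1, chr14:100375368-100375427, minus strand: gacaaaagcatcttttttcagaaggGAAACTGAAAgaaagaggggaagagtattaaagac

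Such letters were found in 3.57% of all windows, and EARS2 was the other member that held them. Of 13 interferon-gamma response genes tested, 0 were called higher and 4 lower, against 1.23% of all genes called lower. Their median log2 fold change was -0.75, beside 0.02 over all genes. Without CPI-613 replicate 2, Control replicate 1 or Control replicate 3 none of the 13 was called, where 7, 0 and 0 genes of the whole table were. The GC- and length-adjusted fit called 8 of the 13 lower, against 5% of all genes. GBP2, an interferon-induced GTPase, had 2.21, 3.38 and 3.18 CPM with CPI-613, against 28.3, 13.7 and 34.6 CPM in Control, a log2 fold change of -3.12 (edgeR adjusted p = 0.0133). CIITA, the master regulator of MHC class II genes, had 0.36, 0.92 and 0.46 CPM with CPI-613, against 4.63, 2.64 and 3.51 CPM in Control, with a log2 fold change of -2.61 (edgeR adjusted p = 0.0269). GBP4, a related GTPase, and CXCL10, a chemokine, were the other genes called lower.

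Of the 11 annotated transcripts of WARS1, 8 had shares that overlapped between the groups, and 3 minor ones had shares above Control in every CPI-613 library. The most abundant transcript took 48.1%, 50.3% and 49.2% of the gene's estimated counts with CPI-613, against 49.1%, 52.5% and 57.3% in Control, and overlapped. The largest of the 3 took 8.87%, 8.70% and 7.77% with CPI-613, against 3.56%, 2.46% and 4.82% in Control. For GARS1 the top transcript took 87.7%, 89.1% and 87.1% with CPI-613, against 83.3%, 84.7% and 78.8% in Control. For KARS1 it took 80.8%, 77.7% and 75.8% with CPI-613, against 73.2%, 74.5% and 71.2% in Control. In GARS1 and KARS1 the CPI-613 shares were above all Control shares, by few percentage points and with no test, since the split between transcripts is an estimate made by the authors' counter.

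Genes of the ATF4 pathway other than synthetases were called higher in 11 of 21 cases, against 1.94% of all genes, and lower in 0, and their log2 fold changes had a median of 1.59. After adjustment 16 were called higher, against 6.57% of all genes. By counts, 1 was called without CPI-613 replicate 2 and 0 without either of Control replicates 1 and 3. Of the whole table, 7, 0 and 0 genes were called in these fits. This list was chosen with its rise in these samples known, so its direction is not independent evidence. CHAC1, which degrades glutathione, had 42.3, 63.1 and 97.3 CPM with CPI-613, against 2.43, 5.20 and 2.598 CPM in Control. ASNS, asparagine synthetase, had 443, 472 and 449.6 CPM with CPI-613, against 57.5, 72.9 and 55.9 CPM in Control. Both groups of libraries were separate in CHAC1 and ASNS, with log2 fold changes of 4.30 and 2.87 (edgeR adjusted p = 0.00738 and 0.00387). TRIB3, a pseudokinase that restrains ATF4, and SESN2, a leucine sensor, were called at log2 fold changes of 3.06 and 2.49. ATF4 itself had 807, 942 and 1192 CPM with CPI-613, against 442, 579 and 451 CPM in Control. Its groups were separate but its log2 fold change of 1.00 was not called (edgeR adjusted p = 0.0678), except after adjustment (0.87, edgeR adjusted p = 0.00381).

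Of 15 genes for proteins that handle transfer RNAs beside the synthetases, 0 were called by edgeR, DESeq2 or limma-voom. An unadjusted p under 0.05 was found for 2 in each, beside 1823, 1866 and 1815 of all 12655 genes. DESeq2 called 7.05% of all genes, and edgeR after GC and length adjustment called 6.57% higher. XPOT, which exports transfer RNAs from the nucleus, had 448, 338 and 139 CPM with CPI-613, against 203, 172 and 215 CPM in Control. Like IARS1, it was above Control in CPI-613 replicates 1 and 2 and below it in replicate 3, and it was the gene of this list called after adjustment, at a log2 fold change of 0.92 (edgeR adjusted p = 0.00564). AIMP2, a scaffold of the multisynthetase complex, averaged 74.0 ± 18.4 CPM with CPI-613 and 50.2 ± 14.6 CPM in Control (SD, n = 3 each) and was not called.

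Among general translation factors edgeR called 0 of 18 cytosolic initiation factors, 0 of 10 cytosolic elongation factors and 0 of 12 mitochondrial translation factors. Unadjusted edgeR p-values under 0.05 were found for 3, 1 and 0 of them, beside 1823 of all 12655 genes. DESeq2 called 2, 1 and 0 of these factors, while limma-voom called 1, 0 and 0. Over all genes edgeR called 3.17%, DESeq2 7.05% and limma-voom 413 of 12655. EEF1A1, which carries charged transfer RNAs to the ribosome, averaged 13590 CPM with CPI-613 and 8007 CPM in Control and was not called (edgeR adjusted p = 0.128). TUFM, its mitochondrial counterpart, averaged 488 CPM with CPI-613 and 380.1 CPM in Control (edgeR adjusted p = 0.733). After adjustment EIF1, which takes part in start codon choice, and EIF4EBP1, an inhibitor of cap-dependent initiation, were called higher, at log2 fold changes of 1.16 and 1.25. They were 2 of the 18 initiation factors, beside 6.57% of all genes called higher by that fit. EIF1 and EIF4EBP1 were named after their values were seen.

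Levels per transcript length were compared in the deposited values per gene, taken as FPKM. In Control cells TARS1 was highest, at 179 ± 27.4 FPKM, followed by KARS1 at 116.5, YARS1 at 116 and MARS1 at 115 FPKM, which lay within their spread of each other (SD, n = 3 libraries). WARS2 was lowest, at 1.44 ± 0.41 FPKM with CPI-613 and 1.85 ± 0.55 FPKM in Control (SD, n = 3 each). WARS1 ranked at the top with CPI-613, at 239 ± 16.1 FPKM, against 79.3 ± 6.33 FPKM in Control, and MARS1 followed at 225 ± 25.8 FPKM with CPI-613, within that spread. The median over cytosolic genes was 78.0 FPKM with CPI-613 and 72.2 FPKM in Control, and that over mitochondrial genes was 12.2 FPKM with CPI-613 and 13.2 FPKM in Control.

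None of the mitochondrial synthetases was called, and their log2 fold changes lay between -0.44 and 0.36, with standard errors of 0.19 to 0.37. Their median was 0.04, beside 0.26 for the cytosolic genes and 0.02 over all genes tested. VARS2, the valyl enzyme, had the highest estimate, with 33.0, 39.8 and 46.1 CPM with CPI-613, against 31.7, 33.6 and 27.2 CPM in Control. The lowest of its CPI-613 libraries lay within the Control range. IARS2, the isoleucyl enzyme, had the lowest estimate, with 135, 126 and 57.7 CPM with CPI-613, against 158, 115 and 159.5 CPM in Control. In CPM its low value in CPI-613 replicate 3 is the one that sets it apart, as in IARS1 and LARS1. After adjustment its log2 CPM were 6.81, 6.96 and 6.43 with CPI-613, against 7.14, 6.92 and 7.11 in Control. On that scale replicates 1 and 3 were both below every Control library, and the estimate was -0.31 (edgeR adjusted p = 0.268). After adjustment RARS2 and VARS2 were above Control in every CPI-613 library and CARS2 and SARS2 below it, against 18% and 13.9% of all genes (31.9% in either direction), and none was called.

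The families were then set against each other within each library, so that library scaling cancels. The cytosolic minus the mitochondrial mean log2 CPM was 3.03, 2.83 and 2.56 with CPI-613, against 2.35, 2.30 and 2.43 in Control. All CPI-613 libraries were above all Control libraries. The means were 2.81 ± 0.24 with CPI-613 and 2.36 ± 0.06 in Control (SD, n = 3 each), a difference of 0.45. No p is given for a score over chosen members, and 3 against 3 libraries could not go below an exact permutation p of 0.1. After GC and length adjustment the values were 2.92, 2.85 and 2.76 with CPI-613, against 2.29, 2.33 and 2.36 in Control, a difference of 0.51. The cytosolic mean differed between the groups, at 7.77 ± 0.10 log2 CPM with CPI-613 and 7.30 ± 0.10 in Control, whereas the mitochondrial mean was 4.96 ± 0.17 with CPI-613 and 4.94 ± 0.15 in Control (SD, n = 3 each). Without the 5 genes called by counts, a subset chosen by its own result, the difference was 0.12 with overlapping groups. It was 0.24 without overlap after adjustment, a value that still holds MARS1, YARS1 and IARS1, which were called on that scale.

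**Figure D4:**
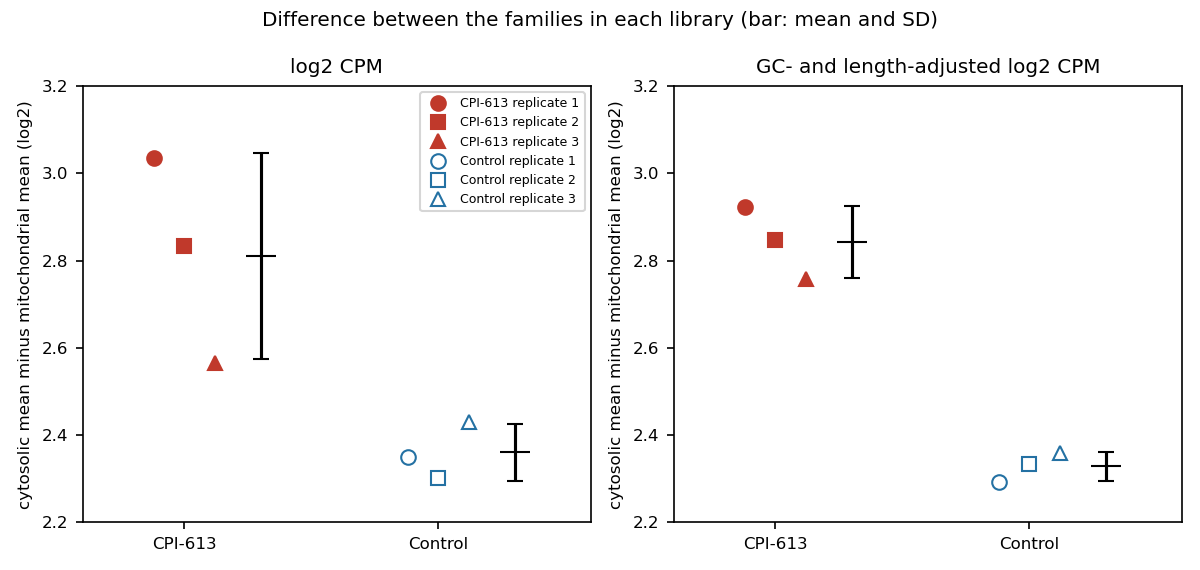
Mean log2 CPM of the 19 cytosolic genes minus that of the 16 mitochondrial genes in each library, from CPM on the left and after GC and length adjustment on the right. Bars are mean and SD of 3 libraries, and the vertical axis does not start at 0. The lowest CPI-613 library (2.56) is above the highest Control library (2.43).

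Pairs of enzymes for the same amino acid were compared as the ratio of cytosolic to mitochondrial FPKM, for 17 pairs and with no test. In 7 pairs the ratio was above Control in every CPI-613 library (tryptophan, serine, cysteine, methionine, alanine, isoleucine and tyrosine), in 1 pair (RARS1 to RARS2) it was below, and in 9 the groups overlapped. No share was computed for ratios over all genes. In CPM the groups were separate for 21% of single genes, 11.8% higher and 9.18% lower. Apart from IARS1, the cytosolic genes of these 7 pairs were separate in CPM on their own. EPRS1 and FARS2 each enter more than 1 pair. AARS1 to AARS2 gave ratios of 16.1, 16.8 and 16.5 with CPI-613, against 6.93, 7.37 and 8.54 in Control. IARS1 to IARS2, whose transcripts have nearly equal GC content (43.6% and 43.8%), gave 2.78, 2.30 and 2.26 with CPI-613, against 1.15, 1.40 and 1.23 in Control. CPI-613 replicate 3 thus stood with the other CPI-613 libraries in this ratio, although both genes were low in it. NARS1 to NARS2 (44.27% and 43.95% GC) gave 3.299, 2.347 and 1.231 with CPI-613, against 2.457, 1.867 and 2.498 in Control. In that ratio CPI-613 replicate 3 lay below every Control library, and replicate 1 above every one. RARS1 to RARS2 (41.38% and 41.86% GC) gave 3.05, 2.94 and 2.75 with CPI-613, against 3.51, 3.93 and 3.31 in Control. The part of GC content in the spread of these ratios was not tested.

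**Figure D5:**
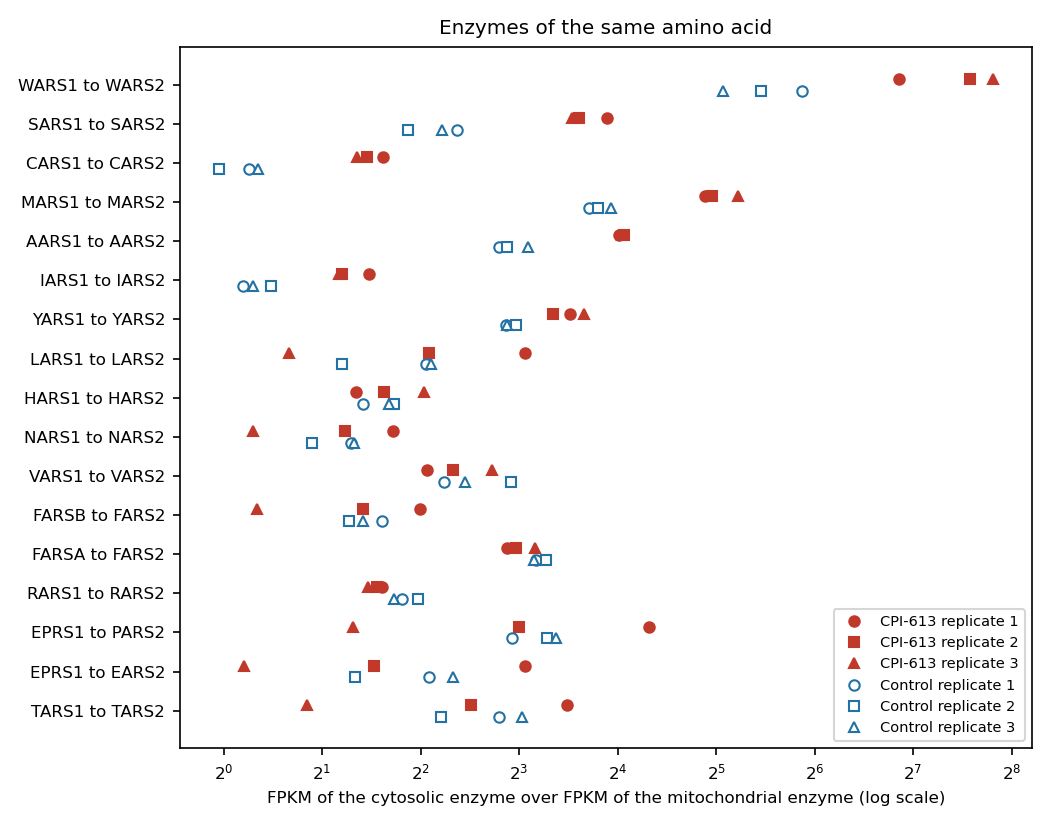
FPKM of the cytosolic over that of the mitochondrial enzyme for 17 pairs that charge the same amino acid, on a log scale. Red filled symbols are CPI-613 replicates 1 to 3 and blue open symbols Control replicates 1 to 3. The groups are separate in 8 pairs, with CPI-613 higher in 7 and lower in RARS1 to RARS2.

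Some members share genomic positions with other genes, and no source used here says whether reads were counted by strand. The 3′ end of MARS1 (chr12:57488068-57516652, plus strand) overlaps DDIT3 on the opposite strand by 65 bases. DDIT3, the stress factor CHOP, had 108, 113 and 119 CPM with CPI-613, against 28.0, 35.3 and 28.96 CPM in Control (edgeR adjusted p = 0.00719). The part of DDIT3 reads in the MARS1 counts was not tested. YARS1 overlaps S100PBP by 797 bases, and S100PBP averaged 41.2 CPM with CPI-613 and 40.5 CPM in Control. The 5 members called by counts overlap no neighbour in the annotation used.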

How the data were processed

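Both deposited tables come from 6 libraries, with total RNA extracted by TRIzol, a NEBNext Ultra II kit and DNBSEQ sequencing, per the labels' protocols. Tools listed in the submitters' processing notes, with no roles, are STAR 2.5, edgeR 3.16.5, HTSeq, CASAVA and DESeq2, with build hg38. The deposited estimated counts per transcript were summed per gene and rounded. The authors' second table was taken as FPKM, because over 1592 single-transcript genes the worth of 1 read followed the inverse library total within 0.608%. In 27 transcripts, none of a member, a date replaced a value, and these were left out, as were 53 genes without symbol (0.0163% of counts).

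Genes passed filterByExpr (minimum count 10, total 15), were scaled by TMM and tested two-sided with edgeR 4.0.16 in R 4.3.3. SE is the log2 fold change over the root of F. Log2 CPM used a prior count of 2. GC and length trends were fitted per library with mgcv 1.9.3, blind to group, and entered as offsets. DESeq2 1.42.0 and limma 3.58.1 were alternatives. The steps were tested on simulated counts. All members are accounted for, and companion lists give up to 4 called genes or up to 2 of highest CPM. Members and lists were chosen with earlier results of these data known. Library totals of 11531942 to 15486513 counts leave precision set by the 3 libraries per group. Sequences and positions are RefSeq's, on GRCh38.p14. Noncoding genes, and CD3E, COL1A2 and DCN of the marker lists, were not analysed here.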

Additional observations from a re-analysis of the deposited data

How the results depend on the processing

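The count of all genes called, 401 by edgeR, was 892 by DESeq2, 1464 after GC and length adjustment and 70 at an adjusted p of 0.01, and leaving out 1 library gave 0 to 900 (626, 633, 643, 1441, 1447 and 2641 after adjustment). The count of cytosolic synthetases called, 5, was 8 after adjustment, 7 by DESeq2, 6 by limma-voom and 1 at an adjusted p of 0.01, and leaving out 1 library gave 0 to 7 (6 to 9 after adjustment). SARS1 also lost its call without Control replicate 2. The count of mitochondrial synthetases called was 0 under every alternative run. The family difference of 0.45 became 0.1243 without the called members and was 0.3385 to 0.5733 with 1 library left out. The adjusted fits with 1 library left out and the difference without the called members were chosen after seeing the data. Of all 840 alternatives for single members, 792 stayed on the same side of the threshold, 19 lost a call and 29 gained one. The sign changed in 152, all of members not called. The 11 ATF4 pathway genes called were 0 to 17 and the 4 interferon-gamma response genes 0 to 9 across the alternatives. With library size only in place of TMM the median of all genes moved to -0.17, and 229 of 487 calls were higher, against 245 of 401. The promoter match read on the forward strand only was found in 2 members in place of 8.

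No label says whether replicate numbers pair the libraries. Same-numbered deviations correlated at 0.457, -0.096 and -0.609, and differently numbered ones at -0.662 to 0.676. Such correlations cannot settle the pairing, since the libraries also differ along GC content. A block for the replicate number gave 190 genes and 2 cytosolic synthetases called, WARS1 and GARS1, and with GC and length adjustment 897 genes and 7 cytosolic synthetases. The family difference of 0.45 could not change under this block, since each replicate number holds a library of each group. The member of lowest level, WARS2, had 2.98 to 5.58 CPM in the libraries, where counting error adds to the spread.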
